A study of Mus musculus with 16 samples.

Results

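The genes of 10 receptors that place B cells in the follicle and the germinal center (GC) were examined, Ccr6, Ccr7, Cxcr4, Cxcr5, Cxcr3, Gpr183, S1pr2, S1pr4, Ccr9 and Ccr10. They were chosen by symbol as known positioning receptors and are 10 of the 51912 genes in the deposited expression values. The libraries were made from spleen B cells of 6- to 15-wk-old male and female cMyc gfp/gfp mice, in which a GFP-cMyc fusion protein is made from the endogenous locus, 7 d after immunization with sheep red blood cells (SRBCs). All cells were sorted as B220+ CD38low CD95+ cMycGFP+, that is, as GC B cells with cMyc protein, a sign of recent positive selection. Within these, cMyc+ prePB cells were CD69hi, cMyc+ early cells CD23hi CD21/35hi, cMyc+ lateCD23int cells CD23int CD21/35int and cMyc+ lateCD23lo cells CD23lo CD21/35lo. According to the study's gating, CXCR4hi CD86lo dark zone (DZ) cells were gated out before the early and late cells were collected but not before the prePB cells, so that a difference in Cxcr4 between prePB and the other subpopulations and the gate cannot be told apart. Each subpopulation had 4 libraries, numbered 1 to 4 in the labels, of bulk RNA. The labels do not say whether the 4 libraries of a subpopulation came from separate mice, and p-values measure the spread between these libraries only. In bulk RNA, fewer cells with a transcript and less of it per cell cannot be told apart.

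A B cell follows gradients of chemokines, oxysterols and sphingosine 1-phosphate (S1P) through G protein-coupled receptors. CXCR5 draws it into follicles, where stromal cells make CXCL13, CCR7 draws it to the T zone, and GPR183 (also EBI2) follows oxysterols to the outer follicle and the border of the T zone. In the GC, CXCR4 holds cells in the DZ near CXCL12 and its loss marks the light zone (LZ), whereas S1PR2 confines cells to the GC by slowing migration. CCR6, the receptor for CCL20, is known from memory B cells and their precursors, CXCR3 from cells that answer interferon-induced chemokines, and CCR9 and CCR10 from antibody-secreting cells that home to mucosa and skin.

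Values are reads per gene scaled by the size factor of each library (normalized counts), and between 19812080 and 25795815 reads per library lay behind them. The floor at or under which a gene was treated as not measurable, 3 reads, corresponded to 2.48 to 3.23 normalized counts, a limit that covers counting error only. The pan-B and GC B marker lists were present in every library, with all 6 and all 7 genes above a mean of 10. Of the 8 T cell markers, Trac was found in every library, with means of 27.0 to 66.7 by subpopulation, and Cd3d in all libraries but 1, whereas Cd4 was at 0 in all prePB libraries and Cd3e at 0 in all early and lateCD23lo libraries but found in some of the others.

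Of the 10 receptors, 8 passed the filter on low values (an average of 10 normalized counts or more over all libraries) and were tested, and Ccr9 and Ccr10 did not. Per kb of exon, which makes levels comparable between genes, Cxcr5 was the highest with a mean level of 1002 over all libraries, followed by Gpr183 with 422 and Ccr6 with 208. The mean levels per kb were 133 for Cxcr3, 95.9 for S1pr2, 69.2 for Cxcr4, 59.1 for Ccr7 and 11.3 for S1pr4. Cxcr5 lay at the 88.4th percentile of the tested genes with an annotated length and S1pr4 at the 15.9th. Cxcr5 stayed above every other receptor in the mean of each subpopulation, whereas the place of Ccr6 moved. Ccr6 followed Cxcr5 and Gpr183 in cMyc+ early with 445 per kb, but in cMyc+ lateCD23lo its 64.8 per kb lay below Cxcr3, S1pr2, Cxcr4 and Ccr7.

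**Figure D1:**
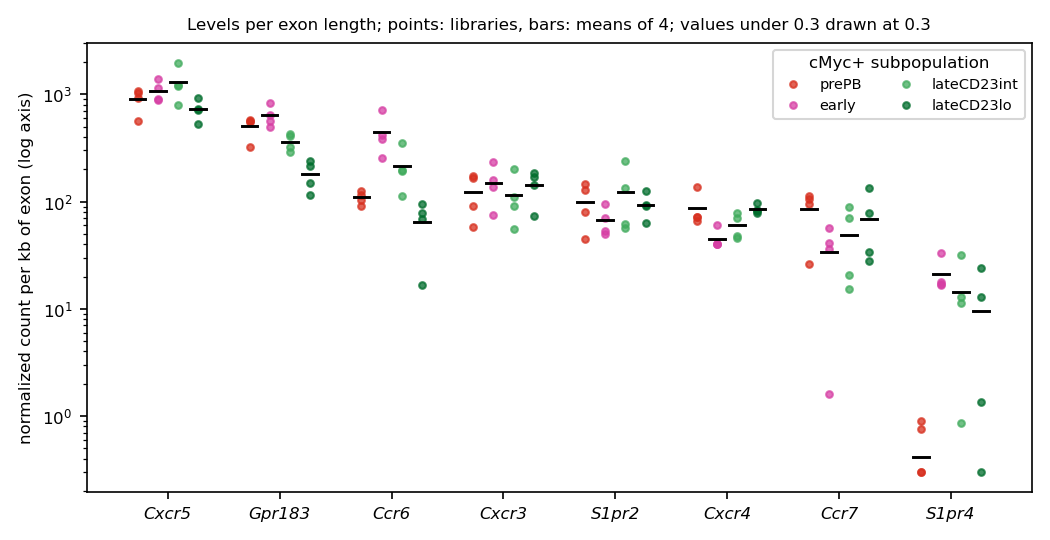
Normalized count per kb of exon (log axis) of the 8 tested receptors, ordered by their mean, with points for libraries colored by subpopulation and bars for the means of 4. Cxcr5 leads in all subpopulations, Ccr6 spans from 445 in cMyc+ early to 64.8 in cMyc+ lateCD23lo, and S1pr4 of cMyc+ prePB lies at the bottom.

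Of the 8 tested receptors 2, Gpr183 and Ccr6, differed among the 4 subpopulations at an adjusted p-value under 0.05 in limma's moderated F test, against 0.408% of the 12505 genes tested (51 genes). S1pr4 was at or under the floor in every cMyc+ prePB library and passed the filter only through the other subpopulations, so it is left out of the counts that follow on unadjusted p-values and on overlap. At an unadjusted p under 0.05 the count was 3 of the other 7 receptors, with Cxcr5, against 10.2% of all genes. Both called receptors were highest in cMyc+ early and lowest in cMyc+ lateCD23lo. Between-group differences took up 81.9% of the variance of Gpr183 and 74.4% of that of Ccr6 on the log2 scale, where the median over all tested genes was 21.3%.

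A promoter window of each called receptor is shown with that of Cxcr4, whose levels ran the other way among the CD23-sorted subpopulations. Each window holds the 250 bases before a RefSeq transcript start (GRCm38.p6), and capitals mark a match to the NF-kB (kB) consensus in Ccr6 and the letters CACCC, which KLF factors bind, in Cxcr4. The Ccr6 window at chr17:8242276-8242525 (plus strand) precedes the second of its annotated starts and lies inside the gene, the Gpr183 window is chr14:121965194-121965443 (minus strand), and the Cxcr4 window is chr1:128592300-128592549 (minus strand).
Ccr6: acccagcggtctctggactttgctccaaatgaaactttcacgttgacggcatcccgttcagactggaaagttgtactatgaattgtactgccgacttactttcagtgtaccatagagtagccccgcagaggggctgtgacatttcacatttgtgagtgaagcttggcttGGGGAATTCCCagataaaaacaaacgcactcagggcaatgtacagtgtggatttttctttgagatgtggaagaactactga
Gpr183: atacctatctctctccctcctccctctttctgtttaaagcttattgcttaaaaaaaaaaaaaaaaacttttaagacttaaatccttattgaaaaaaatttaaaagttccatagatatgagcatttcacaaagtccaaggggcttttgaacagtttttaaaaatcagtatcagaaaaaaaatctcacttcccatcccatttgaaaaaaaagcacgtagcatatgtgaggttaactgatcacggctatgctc
Cxcr4: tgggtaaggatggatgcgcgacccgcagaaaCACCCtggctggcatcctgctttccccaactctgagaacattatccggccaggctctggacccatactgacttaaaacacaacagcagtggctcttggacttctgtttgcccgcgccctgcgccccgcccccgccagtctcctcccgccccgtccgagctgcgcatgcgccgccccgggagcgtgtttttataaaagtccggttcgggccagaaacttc
None of the bases in the Ccr6 and Cxcr4 windows, and 2 of those in the Gpr183 window, lie in an exon of the GENCODE annotation. The G+C share of the windows was 46.0% for Ccr6, 32.0% for Gpr183 and 61.2% for Cxcr4. Motifs were searched on both strands in the 8 windows found for 7 of the 10 receptors. The kB consensus is held by 3.9% of 32851 promoter windows of this length, and among the receptors by the second Ccr6 window, in overlapping matches 81 and 80 bases before the start. The first Ccr6 window (chr17:8235793-8236042), which precedes the gene, is not shown and held none of the motifs searched. CACCC is held by 52% of all windows and by those of Cxcr4, S1pr2, S1pr4 and Ccr9, in Cxcr4 219 bases before the start. TATAAA (12.4% of all windows) was present in Cxcr4 30 bases before the start, in either direction with an overlap. CAGGTG (17.2%) was found in Cxcr3, S1pr2, S1pr4 and Ccr9, whereas no receptor window held TGTTTAC (3.17%), which FOXO factors bind, or CACGTG (6.02%), which MYC binds. A match is a description of letters, and these libraries hold no measurement of factor binding.

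Gpr183 (ENSMUSG00000051212, chr14:121952551-121965195, minus strand) was the receptor with the smallest p-value. Its normalized counts were 2410, 1638, 1872 and 1447 in cMyc+ early libraries 1 to 4. They were 1631, 933, 1683 and 1613 in cMyc+ prePB and 1234, 1177, 936 and 843 in cMyc+ lateCD23int. In cMyc+ lateCD23lo they were 697, 329, 428 and 621, so that every library there lay below every library of the other 3 subpopulations. The means were 1842 ± 417 (SD, n = 4) in cMyc+ early, 1465 ± 356 in cMyc+ prePB, 1047 ± 188 in cMyc+ lateCD23int and 519 ± 170 in cMyc+ lateCD23lo. The F test of limma gave an adjusted p of 0.00776.

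Gpr183 was 3.55-fold higher in cMyc+ early than in cMyc+ lateCD23lo by the ratio of means, with a log2 fold change of 1.86 (SE 0.26, adjusted p = 0.00349 in limma), and higher in each of the 4 library numbers. It was 2.82-fold higher in cMyc+ prePB than in cMyc+ lateCD23lo (log2 fold change 1.52, SE 0.26, adjusted p = 0.0147 in limma). The latter call was lost when cMyc+ prePB library 3 or 4 or cMyc+ lateCD23lo library 2 or 3 was left out, with limma adjusted p between 0.0505 and 0.0615. Early and prePB, the top pair in the order of levels, did not differ beyond their spread, with a log2 difference of prePB minus early of -0.34 and a 95% interval from -0.90 to 0.21. The steps from cMyc+ early to cMyc+ lateCD23int (log2 fold change 0.80) and from there to cMyc+ lateCD23lo (1.06) had groups that did not overlap, but limma adjusted p of 0.9999 and 0.540. Gpr183 lies opposite Ubac2, with which it shares no exonic base.

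Ccr6 (ENSMUSG00000040899, chr17:8236043-8257141, plus strand) was lowest in cMyc+ lateCD23lo as well. In cMyc+ early its normalized counts were 1662, 598, 893 and 973 in libraries 1 to 4, and in cMyc+ lateCD23int 812, 447, 459 and 261. In cMyc+ lateCD23lo they were 222, 158, 182 and 39, without overlap with either. The cMyc+ prePB libraries were close together at 294, 213, 267 and 243, all below every cMyc+ early library. The means were 1032 ± 450 (SD, n = 4) in cMyc+ early, 495 ± 230 in cMyc+ lateCD23int, 254 ± 34.6 in cMyc+ prePB and 150 ± 78.9 in cMyc+ lateCD23lo.

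For Ccr6 the F test of limma gave an adjusted p of 0.0236. Without cMyc+ early library 1, 3 or 4 it was 0.0709, 0.0677 or 0.0729. Ccr6 was 6.86-fold higher in cMyc+ early than in cMyc+ lateCD23lo (log2 fold change 2.93, SE 0.48, adjusted p = 0.00872 in limma) and higher in 4 of 4 library numbers, a call that held with each library left out in turn but was lost with only these groups in the fit (adjusted p = 0.0605 in limma). Neighbors in the order of levels could not be set apart over all genes. From cMyc+ early to cMyc+ lateCD23int the log2 difference was 1.08 (95% interval 0.07 to 2.08, limma adjusted p = 0.9999), that of cMyc+ prePB minus cMyc+ lateCD23int was -0.85 and that of cMyc+ prePB minus cMyc+ lateCD23lo was 0.999, with limma adjusted p of 0.637 and 0.396. The log2 fold change from cMyc+ lateCD23int to cMyc+ lateCD23lo, which are not neighbors, was 1.85, with a limma adjusted p of 0.544.

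The cMyc+ prePB subpopulation set Ccr6 and Gpr183 apart in their values. Its mean Gpr183 was 79.5% of the cMyc+ early mean, whereas its mean Ccr6 was 24.7%. The log2 fold change of Ccr6 in prePB against early was -1.93 (SE 0.48), with an unadjusted p of 0.000763 and an adjusted p of 0.153 in limma. Without cMyc+ lateCD23lo library 4 (39 normalized counts of Ccr6), the adjusted p was 0.0338, and over all alternatives it ran from 0.0308 to 0.444 in limma or edgeR. The ratio of Gpr183 to Ccr6 per kb ranged from 3.501 to 5.326 in the prePB libraries, from 1.17 to 2.20 in early and from 1.22 to 2.59 in lateCD23int. The prePB ratios were above all of these, whereas those of cMyc+ lateCD23lo ran from 1.67 to 12.6 and overlapped with them. These ratios are given as a description.

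**Figure D2:**
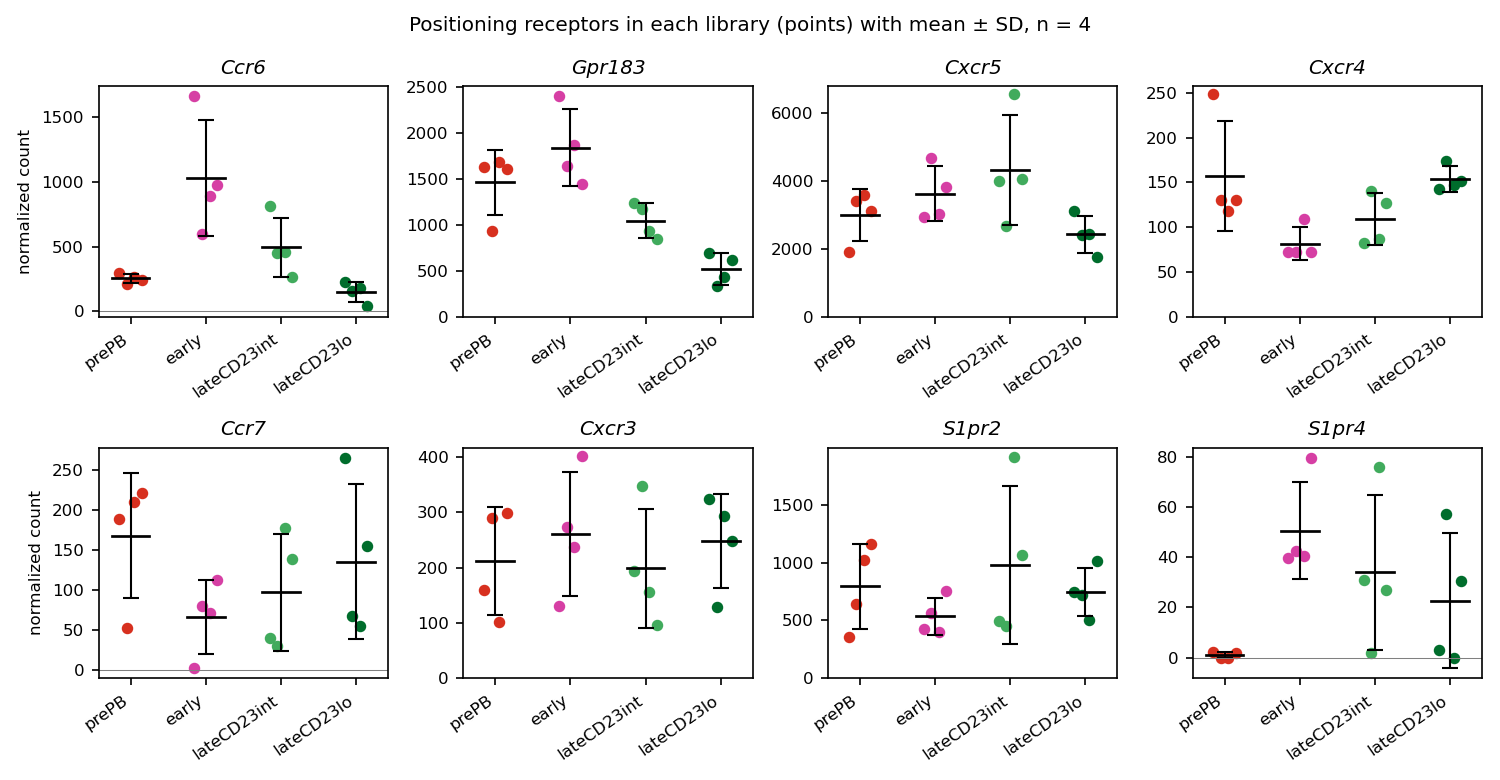
Normalized count of each tested receptor (linear axes from 0) in the 16 libraries, colored by subpopulation, with the mean ± SD of 4 libraries. The cMyc+ lateCD23lo values of Gpr183 lie below all others, cMyc+ early holds the highest mean of Ccr6, and the subpopulations overlap for Ccr7, Cxcr3 and S1pr2.

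Cxcr4 (ENSMUSG00000045382, chr1:128588199-128592293, minus strand) had its lowest mean in cMyc+ early, where Ccr6 and Gpr183 had their highest, but did not pass the test over all genes. Its normalized counts were 72, 73, 109 and 72 in cMyc+ early, 83, 140, 86 and 126 in cMyc+ lateCD23int and 142, 174, 147 and 152 in cMyc+ lateCD23lo. In cMyc+ prePB they were 248, 130, 118 and 130. Every early library was below every lateCD23lo and every prePB library, and every lateCD23int library below every lateCD23lo library. The means were 81.5 ± 18.2 (SD, n = 4), 109 ± 28.9, 154 ± 14.1 and 157 ± 61.4 in the same order.

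The log2 fold change of Cxcr4 in early against lateCD23lo was -0.93 (SE 0.41), with an unadjusted p of 0.0366 and an adjusted p of 0.444 in limma, and the direction was the same in 4 of 4 library numbers. For prePB against early it was 0.89, with an unadjusted p of 0.0443 and an adjusted p of 0.576, and 0.64 without cMyc+ prePB library 1, the highest of all. Groups that did not overlap were seen for 3 of the 7 receptors other than S1pr4 in early versus lateCD23lo, against 6.23% of all genes, and for 2 of them in prePB versus early, against 4.23%. The F test gave an adjusted p of 0.586, although the share of variance between groups, 61.3%, lay at the 97.5th percentile of all tested genes.

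Cxcr5 (ENSMUSG00000047880, chr9:44511787-44561877, minus strand), the follicular homing receptor, was high in all subpopulations. Its normalized counts were 1890, 3403, 3575 and 3114 in cMyc+ prePB, 2931, 4670, 3034 and 3826 in cMyc+ early, 4002, 2665, 6555 and 4062 in cMyc+ lateCD23int and 3118, 2392, 2422 and 1751 in cMyc+ lateCD23lo. All pairs of subpopulations overlapped, although the lateCD23lo mean of 2421 ± 558 (SD, n = 4) was the lowest and the lateCD23int mean of 4321 ± 1623 the highest. The F test gave an unadjusted p of 0.0381 and an adjusted p of 0.461 in limma. Between lateCD23int and lateCD23lo the log2 fold change was 0.79 (SE 0.26, adjusted p = 0.699 in limma), with lateCD23int higher in 4 of 4 library numbers. Cxcr5 shares 110 exonic bases with Bcl9l on the other strand, at a mean of 48.1 normalized counts, and reads of the pair cannot be told apart by strand in these libraries.

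The ratio of Cxcr5 to Cxcr4 per kb, a within-library measure of follicular against DZ receptor transcripts, ranged from 15.0 to 34.5 in cMyc+ early and from 6.22 to 11.8 in cMyc+ lateCD23lo, without overlap. It ranged from 10.2 to 40.8 in cMyc+ lateCD23int and from 4.12 to 16.3 in cMyc+ prePB. Across the 16 libraries Cxcr4 and Cxcr5 had a Pearson r of -0.72, and -0.71 after the subpopulation means were taken out. The latter r pools the 4 subpopulations and is not a result within each of them. It includes cMyc+ prePB library 1, with 248 normalized counts of Cxcr4 and 1890 of Cxcr5, and was not computed without that library. Ccr6 and Gpr183 had an r of 0.69, which was 0.18 after the means were taken out. These correlations are descriptions over libraries that share a size factor for all genes.

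**Figure D3:**
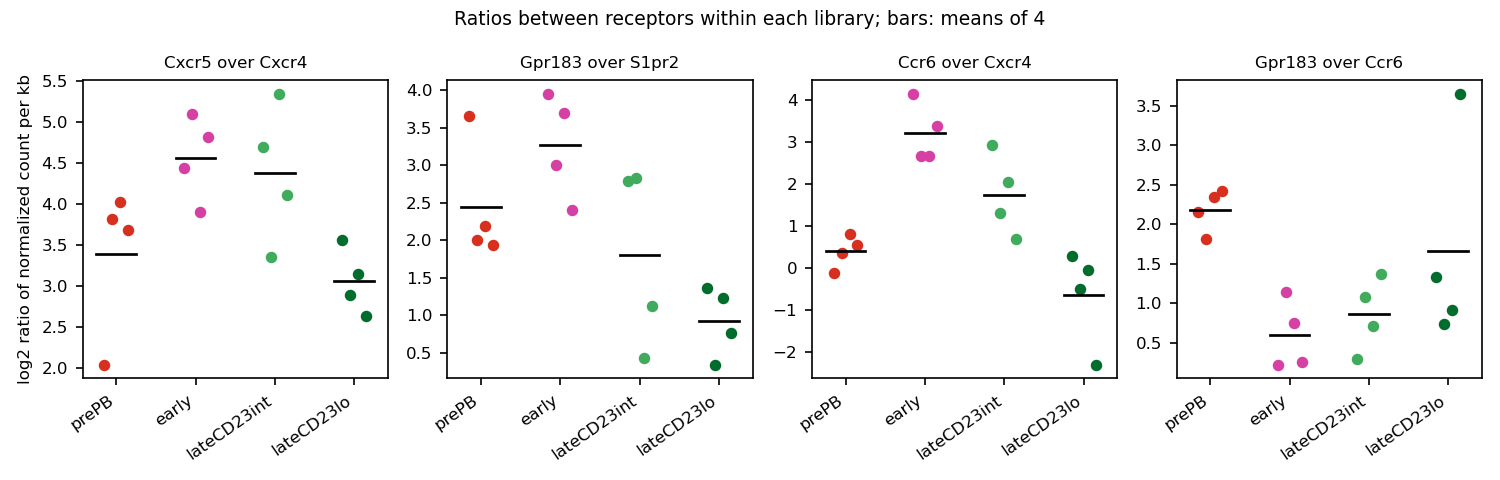
Log2 ratio of normalized counts per kb between pairs of receptors in each library, with bars for the means of 4. The Cxcr5 to Cxcr4 ratio of every cMyc+ early library lies above every cMyc+ lateCD23lo library, and the Gpr183 to Ccr6 ratio of every cMyc+ prePB library lies above those of cMyc+ early and cMyc+ lateCD23int.

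S1pr2 (ENSMUSG00000043895, chr9:20962361-20976781, minus strand), which confines cells to the GC, did not differ beyond its spread. Its normalized counts were 355, 640, 1021 and 1163 in cMyc+ prePB, 428, 565, 398 and 751 in cMyc+ early, 492, 454, 1914 and 1065 in cMyc+ lateCD23int and 748, 719, 505 and 1011 in cMyc+ lateCD23lo. All subpopulations overlapped, and libraries of a subpopulation differed by up to a coefficient of variation of 69.5%. The log2 difference of early minus lateCD23lo was -0.48 with a 95% interval from -1.39 to 0.43, and the F test of limma gave an adjusted p of 0.821. The ratio of Gpr183 to S1pr2 per kb, the former known for outward migration and the latter for confinement, ranged from 5.32 to 15.5 in cMyc+ early and from 1.27 to 2.57 in cMyc+ lateCD23lo, without overlap.

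S1pr4 (ENSMUSG00000044199, chr10:81497747-81500132, minus strand), another S1P receptor of lymphoid cells, was close to nothing in cMyc+ prePB. In prePB, 2 reads were found in libraries 1 and 4 and 0 in the others. In cMyc+ early its normalized counts were 40, 42, 40 and 79, in cMyc+ lateCD23int 31, 2, 76 and 27, and in cMyc+ lateCD23lo 3, 57, 0 and 31. Against the floor of 3 reads per library, cMyc+ early was at least 18.2-fold higher than cMyc+ prePB. S1pr4 passed the filter on low values only through the other subpopulations, so that its groups had to differ to be tested, and no p-value is given for it.

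Ccr7 and Cxcr3 varied more between libraries than between subpopulations. Ccr7 (ENSMUSG00000037944, chr11:99144196-99155077, minus strand) had normalized counts of 189, 52, 210 and 221 in cMyc+ prePB, 3, 81, 71 and 113 in cMyc+ early, 41, 31, 178 and 139 in cMyc+ lateCD23int and 265, 67, 55 and 155 in cMyc+ lateCD23lo. Cxcr3 (ENSMUSG00000050232, chrX:101731535-101734269, minus strand) had 159, 289, 101 and 299 in prePB, 130, 273, 238 and 402 in early, 193, 348, 157 and 96 in lateCD23int and 323, 128, 294 and 248 in lateCD23lo. All subpopulations overlapped for both receptors. The adjusted p of the F test of limma was 0.702 for Ccr7 and 0.933 for Cxcr3. For Cxcr3 the log2 difference of early minus lateCD23lo was 0.04, with a 95% interval from -0.99 to 1.07.

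Both receptors are also made by T cells. The summed normalized counts of 8 T cell markers were 64.9 to 303 in cMyc+ prePB, 38.8 to 97.5 in cMyc+ early, 78.9 to 107 in cMyc+ lateCD23int and 104 to 156 in cMyc+ lateCD23lo, and their part in Ccr7 and Cxcr3 was not tested. Ccr9 was found with 9 reads in cMyc+ prePB library 1 and 8 reads in cMyc+ lateCD23int library 4, and with 0 in the other 14 libraries. Ccr9 overlaps other genes on the same and the other strand, Gm17200, Gm17021 and Slc6a20a among them, so that reads could have been split. Ccr10 was found with 3 reads in cMyc+ prePB library 3 and with 0 in the other 15. Both homing receptors of antibody-secreting cells were thus at or under the floor in 14 and 16 libraries.

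**Figure D4:**
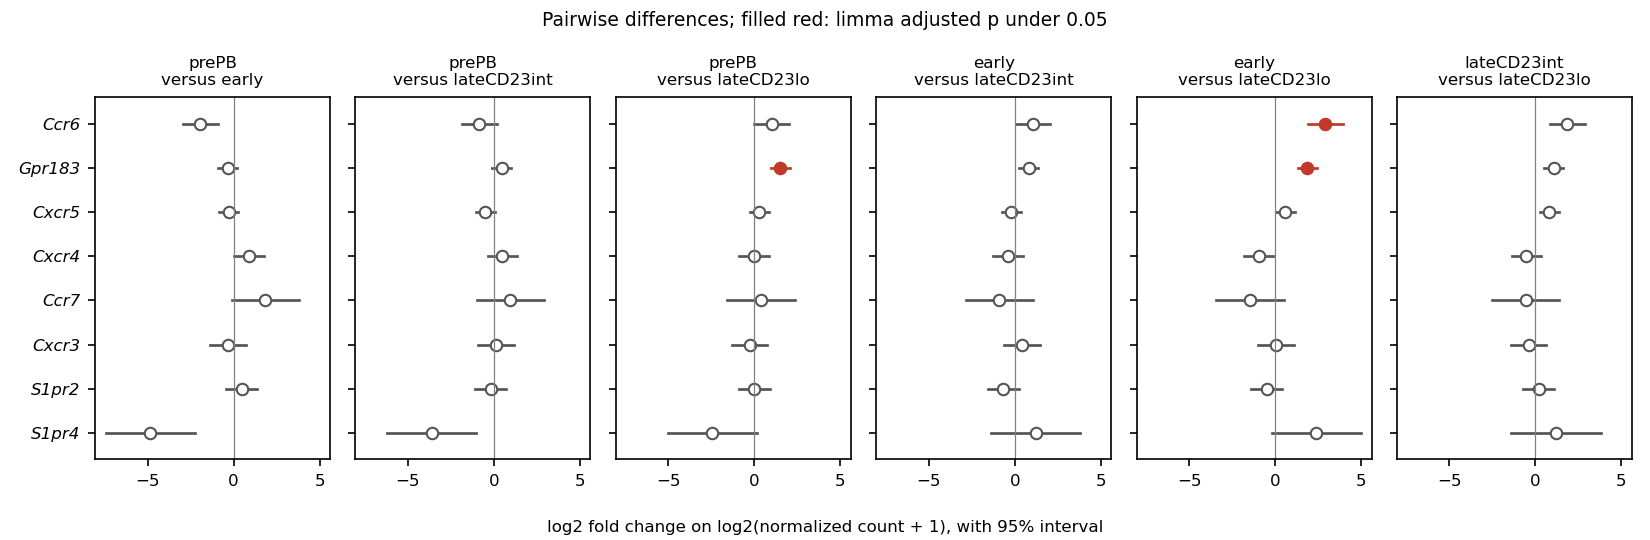
Log2 fold changes (first minus second subpopulation) of the 8 tested receptors in the 6 pairwise comparisons, with 95% intervals from limma, filled red where the adjusted p was under 0.05. S1pr4 passed the filter on low values only through the subpopulations other than cMyc+ prePB, so its intervals are not read as a test. Red points stand for Ccr6 and Gpr183 in early versus lateCD23lo and for Gpr183 in prePB versus lateCD23lo.

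By pairs of subpopulations, 2 of 8 receptors passed an adjusted p under 0.05 in early versus lateCD23lo, where 0.28% of all genes did, and 1 of 8 in prePB versus lateCD23lo, where 0.264% did. None passed in prePB versus early (0.192% of all genes), prePB versus lateCD23int (0.144%), early versus lateCD23int (0.008%) or lateCD23int versus lateCD23lo (0.008%). In these 4 comparisons the receptors other than S1pr4 at an unadjusted p under 0.05 numbered 2, 0, 2 and 3, against 8.58%, 8.77%, 3.71% and 6.28% of all genes. The quasi-likelihood test of edgeR called 0 receptors in each, and 0.064%, 0.088%, 0.008% and 0.008% of all genes at an adjusted p under 0.05. In early versus lateCD23lo 4 receptors other than S1pr4 had an unadjusted p under 0.05 in limma (10.3% of all genes). In prePB versus lateCD23lo 1 did (12.7%). Apart from S1pr4, groups that did not overlap were seen for 1 receptor in prePB versus lateCD23lo (6.56% of all genes), 0 in prePB versus lateCD23int (5.21%), 1 in early versus lateCD23int (2.48%) and 3 in lateCD23int versus lateCD23lo (3.77%). In edgeR the receptors called were the same, with an adjusted p of 0.0138 for Ccr6 and 0.00544 for Gpr183 in early versus lateCD23lo (0.184% of all genes) and of 0.0177 for Gpr183 in prePB versus lateCD23lo (0.248%). The comparisons share libraries, so their counts are not independent of each other.

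Klf2, a transcription factor of quiescent, recirculating lymphocytes, was at 79.3 ± 49.7 (SD, n = 4) normalized counts in cMyc+ early and 3.15 ± 3.12 in cMyc+ lateCD23lo (adjusted p = 0.0394 in limma for this pair and 0.102 in the F test). S1pr1, the receptor for egress, had means of 133, 88.7, 46.7 and 37.4 in early, lateCD23int, lateCD23lo and prePB, with an F test adjusted p of 0.543. Fcer2a, which encodes the sorted CD23, had means of 13398, 8594 and 2274 in early, lateCD23int and lateCD23lo and 7457 in prePB, and as the gene of a sorting marker its order is no finding.

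Klf2 and Fcer2a are also markers of naive or follicular B cells. The summed level of 3 such markers that are neither a receptor studied here nor a sorting marker (Ighd, Klf2 and Cd55) was 850.4 to 1710.4 in cMyc+ early, 519 to 1293 in cMyc+ lateCD23int, 329 to 794 in cMyc+ lateCD23lo and 343 to 862 in cMyc+ prePB, and none of them was at 0 in all libraries. The mean of Ighd was 357 in cMyc+ prePB and 269 in cMyc+ lateCD23lo, and that of Cd55 was 150 and 268. Klf2 had means of 21.9 and 3.15 in the same order, with libraries from 9.02 to 41.9 and from 0 to 6.47. Ccr7, another gene of naive cells, had its lowest mean in cMyc+ early, with 66.9 ± 46.1 (SD, n = 4). The part of naive or follicular B cells in the levels of Ccr6 and Gpr183 was not tested.

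**Figure D5:**
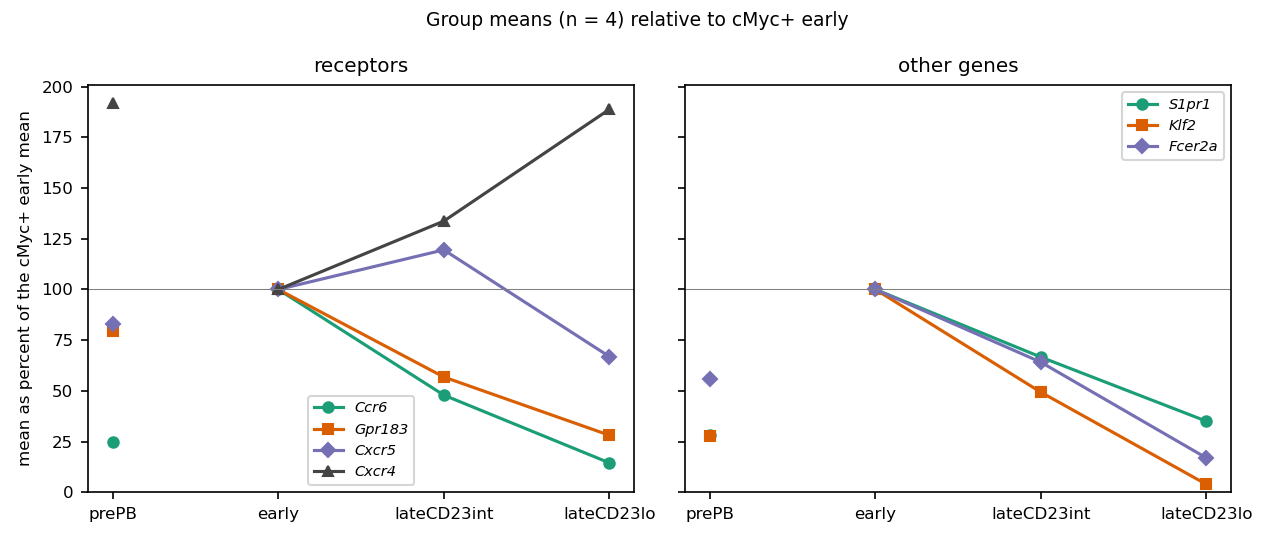
Mean normalized count (n = 4) in each subpopulation as a percent of the cMyc+ early mean, for 4 receptors (left) and 3 other genes (right), with lines joining the subpopulations in the order of the CD23 gates. Ccr6 is at 14.6% and Gpr183 at 28.2% in cMyc+ lateCD23lo, where Cxcr4 is at 189%, and in cMyc+ prePB Gpr183 is at 79.5% while Ccr6 is at 24.7%.

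Lists of genes around the receptors were set beside the 0.408% of all tested genes that passed the F test. Of 11 chemokine ligands 4 were measurable enough to be tested and 0 passed, and Cxcl12, the ligand of CXCR4, and Ccl20, the ligand of CCR6, had means of 0. Of 13 enzymes and transporters of oxysterol and S1P metabolism 7 were tested and 0 passed, with Ch25h and Cyp7b1, which make the GPR183 ligand, at a mean of 0 in each subpopulation. Of 31 other chemoattractant receptors 19 were tested and 0 passed. Their median log2 fold change in early against lateCD23lo was 1.32, beside -0.01 over all tested genes, and 12 of the 19 had positive values. In that comparison 5 of the 19 had an unadjusted p under 0.05 with higher values in early and 2 with lower values, against 5.2% and 5.12% of all tested genes. Some of the 19 passed the filter on low values only through the subpopulations where they are higher. Among these are P2ry13, with means of 0 in both late subpopulations, and Ccr2, with a mean of 0.50 in early. The median and these counts are given as a description.

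Among 24 tested G proteins and their regulators 1 passed the F test. Rgs18, a regulator that shortens G protein signals, was at 381 ± 177 (SD, n = 4) in cMyc+ prePB and at 1728 ± 561 in cMyc+ early, where limma gave an adjusted p of 0.0450, with means of 1652 and 1716 in the late subpopulations. Rgs13, a regulator known from GC B cells, had means of 10714 in prePB, 12023 in early, 18720 in lateCD23int and 18952 in lateCD23lo (F test adjusted p = 0.152 in limma), Rgs1 had 300, 146, 338 and 295 in the same order (adjusted p = 0.554 in limma), and Gna13, the G protein through which S1PR2 signals, 2543, 1949, 2545 and 2976 (adjusted p = 0.481 in limma). Of 19 tested migration effectors 0 passed. Of 20 transcription factors 1 passed the F test, Batf, an AP-1 family factor, with 5987 ± 904 (SD, n = 4) in cMyc+ prePB against 1931 ± 195 in cMyc+ lateCD23lo (F test adjusted p = 0.000926 in limma). Foxo1, a DZ factor, had means from 1026 in prePB to 1425 in lateCD23lo (adjusted p = 0.739 in limma).

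Of the sorting markers other than Fcer2a, Cr2, which encodes CD21/35, had means of 1860 in prePB, 6638 in early, 6928 in lateCD23int and 4738 in lateCD23lo, with an F test adjusted p of 0.0219 in limma. Cd69, by which prePB cells were sorted, had means of 3453, 3160, 3762 and 2277 in the same order (adjusted p = 0.687 in limma). Cd86 had 7818, 8865, 12160 and 8786 (adjusted p = 0.663 in limma) and Myc 3823, 2503, 2079 and 1427 (adjusted p = 0.350 in limma).

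The genes whose log2 values were most like each receptor over the 16 libraries were Dock10 and H2-DMb2 for Ccr6 (r of 0.88 and 0.85), Coro2a and Fam212a for Gpr183 (0.88 and 0.87), Limd2 and Cnn2 for Cxcr5 (0.93 and 0.93) and Igkv1-117 and Hpgds for Cxcr4 (0.85 and 0.84). For S1pr2 they were Ccar2 and Narfl (0.84 and 0.84), for Ccr7 Slc35c1 and Gne (0.87 and 0.86), for Cxcr3 Slc8b1 and Ttll9 (0.83 and 0.80) and for S1pr4 Diaph3 and Eri2 (0.79 and 0.76). The Ccr7 values rest on the libraries farthest from the median, as r fell to 0.59 for Slc35c1 and 0.45 for Gne when the 2 farthest were left out. Each pair was picked for the highest r among all tested genes, a choice that favors high values.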

How the data were processed

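RNA of 16 libraries, 4 per subpopulation, was prepared with a low-input kit that does not mark strand. The values that the authors deposited are a signal, reads per gene scaled by the size factor of each library. The submitters' processing notes name Trimmomatic 0.36, STAR 2.5.2a, RSEM 1.2.31, DESeq2 1.20.0, R 3.5.1 and GRCm38 without their roles. Each column was assigned by the sample description that it repeats.

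The receptors, gene lists and tests were chosen with earlier results of these data known. Log2(normalized count + 1) of the 12505 genes with a mean of 10 or more was fitted with limma 3.58.1 in R 4.3.3 (trended prior, 1 model over 16 libraries, F test and 6 contrasts, Benjamini-Hochberg adjustment over all genes). For low genes fold changes on this scale can be too small or, where single libraries are near 0, too large. The log2 fold change of Ccr7 in prePB versus early was 1.85, beside 1.32 in edgeR. Values divided by the smallest step of each library were whole in 100% (tolerance 1e-06), and edgeR 4.0.16 was run on these reads as an alternative. In cMyc+ lateCD23int library 1 this step was so close to 1 that whole multiples alone do not show it to be 1 read. Scripts were tested on simulated data. Exon lengths and gene positions are from GENCODE M21, promoters from RefSeq. Levels per kb used 12484 tested genes with a length. Genes named beside the receptors are the 2 with the highest Pearson r for each, list genes that passed and the best known partners and sorting markers. A result on another gene is not reported here.

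Alternatives were pseudocounts of 0.5 and 5, no filter, a mean of 50 or more, rescaling to equal totals, quantile normalization, no trend, the library number as a block, only the groups compared, edgeR with and without the block, and leaving out each library. Figures were drawn with matplotlib 3.10.9.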

Additional observations from a re-analysis of the deposited data

Results flagged for a closer look

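In 31 sets of 4 libraries (1 receptor in 1 subpopulation), 4 held a library far from the other 3 by Dixon's 95% critical value, and chance gives about 1 in 20. Cxcr4 in cMyc+ prePB library 1 was 248.3 normalized counts, beside 118.1 to 129.8 in the others. Cxcr4 in cMyc+ early library 3 was 108.8, beside 72.2 to 72.6. Gpr183 in cMyc+ prePB library 2 was 932.8, below the 1613 to 1683 of the others. S1pr4 in cMyc+ early library 4 was 79.4, beside 39.8 to 42.5. Ccr9 was 9.67 in cMyc+ prePB library 1 and 7.44 in cMyc+ lateCD23int library 4, with 0 in the other libraries of each, so that these 2 sets had to pass and are not among the 31. Without its outlying library the log2 fold change of Cxcr4 in prePB against early was 0.64 (prePB library 1) or 1.03 (early library 3), and that of Gpr183 in prePB against lateCD23lo was 1.72 with a limma adjusted p of 0.00680.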

How the results depend on the processing

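Of the 48 fold changes (8 receptors in 6 comparisons), 39 kept their sign under each alternative run and the 16 fits that left out 1 library, the called ones among them. There were 11 alternatives, but 10 for S1pr4, which falls under a mean of 50. The call of Gpr183 in early versus lateCD23lo held under all of these, with limma or edgeR adjusted p up to 0.0228. The receptors called by the F test numbered 1, in place of 2, with no filter on low values and with no trend, where Ccr6 had adjusted p of 0.0679 and 0.09996, and 1 to 2 with a library left out. With only the groups compared, 1 receptor in place of 2 passed in early versus lateCD23lo (Ccr6 0.0605, 20 genes in place of 35 over all) and 0 in place of 1 in prePB versus lateCD23lo (Gpr183 0.0938, 13 genes in place of 33), where fewer samples were used. Leaving out a library gave 0 to 1 in prePB versus early and 0 to 1 in prePB versus lateCD23lo. Genes called by the F test numbered 51, and 31 with no filter, 25 with no trend and 29 in edgeR, or 32 to 68 with a library left out.

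The library numbers were not taken to pair the samples. The correlations of the deviations of same-numbered libraries ran from -0.129 to 0.174 over all tested genes (mean 0.0509), 5 of 24 pairs were over 0.1, and 10 of 16 libraries correlated best with their own number, a hint from the data and not from the design. For the 3651 genes at mean levels of 1000 or more they ran from -0.592 to 0.701 (mean 0.259), 17 of 24 were over 0.1, and those of number 1 ran from 0.456 to 0.701. With the number as a block, 173 genes passed the F test (129 with edgeR) and 1 receptor in place of 0 passed in prePB versus early, Ccr6, with adjusted p of 0.0314 in limma and 0.0308 in edgeR, where 0.52% of all genes passed in limma in place of 0.192%. The block changed no other call on a receptor.

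No receptor fold change that turned its sign was a called one. Cxcr4 in prePB versus lateCD23lo (-0.039) became 0.041 after rescaling, 0.030 in edgeR and 0.020 in edgeR with the block, S1pr2 in prePB versus lateCD23lo (-0.0059) 0.075 after rescaling and 0.10 in edgeR, and Cxcr3 in early versus lateCD23lo (0.043) -0.063 after quantile normalization and -0.031 in edgeR with the block. With a library left out, the log2 ranges were -0.181 to 0.436 for Cxcr3 in prePB versus lateCD23int, -0.473 to 0.218 for S1pr2 in prePB versus lateCD23int, -0.283 to 0.072 for Cxcr4 in prePB versus lateCD23lo, -0.566 to 0.033 for Cxcr3 in prePB versus lateCD23lo, -0.236 to 0.334 for S1pr2 in prePB versus lateCD23lo, -1.386 to 0.207 for Ccr7 in early versus lateCD23int, -0.417 to 0.016 for Cxcr5 in early versus lateCD23int, -0.246 to 0.339 for Cxcr3 in early versus lateCD23lo, -0.224 to 0.468 for S1pr2 in lateCD23int versus lateCD23lo. The cause of these changes was not tested. S1pr4, Ccr9 and Ccr10 are limited by depth.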
